A study of Homo sapiens with 18 samples.

Results

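Matrix metalloproteases and the plasminogen activation system were followed across all 18 RNA-seq libraries of the series through 9 genes: MMP1, MMP10, MMP13, MMP14, MMP15, PLAU, PLAUR, TIMP1 and TIMP2. They were chosen by name, by their function in the breakdown of the extracellular matrix, and are 9 of the 58884 genes counted in each library. Like the gene lists below, they were chosen with earlier results of these data known, so counts of called genes are descriptions. The cells were T47D, an estrogen receptor-positive luminal breast cancer line, labelled WT (line name T47D AAV) or PARP1 KO (line name T47D JL). Each genotype was treated for 48 h with the vehicle DMSO, niraparib or olaparib, both drugs at 10 μmol/L, giving 6 groups of 3 libraries. Niraparib and olaparib are PARP inhibitors used in the clinic, and the knockout groups received the same treatments as the WT groups. The labels state neither whether the knockout line is 1 clone nor whether the libraries of a group come from separate cultures, so the p-values measure the spread between these libraries, which may be technical.

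Matrix metalloproteases are zinc-dependent enzymes that cut collagens, laminins and other matrix proteins, and most are made as inactive precursors that another protease has to cut. The urokinase system works alongside them: urokinase, bound to its receptor on the cell surface, converts plasminogen into plasmin, which digests fibrin and can activate metalloprotease precursors. TIMPs are secreted proteins that bind the active site of metalloproteases and block it. Among the 9 genes, MMP1 and MMP13 encode interstitial collagenases, MMP10 encodes stromelysin-2, and MMP14 and MMP15 encode membrane-anchored metalloproteases. PLAU encodes urokinase, PLAUR its receptor, and TIMP1 and TIMP2 the inhibitors. Transcription of MMP10, PLAU and several other genes of this kind is classically linked to AP-1, a dimer of FOS and JUN family proteins, and to ETS factors.

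Library totals lay between 28890837 and 52251288 counts. Levels are given as CPM, counts scaled to the size of each library. PARP1 had a mean of 25.1 CPM (22.9 to 27.6, n = 9) in PARP1 KO and 337 CPM (291 to 373, n = 9) in WT, so that 7.45% of the WT level was left and the ranges did not overlap. All 8 luminal epithelial markers checked were detected, with summed levels of 12300 to 12900 CPM in WT DMSO, 8840 to 9760 CPM in WT niraparib and 9640 to 10100 CPM in WT olaparib. PGR (log2 fold change -0.88) and GATA3 (-0.74) were the 2 of these 8 called lower with niraparib. Their part in the results below was not tested, and in bulk RNA fewer cells of a kind and less RNA per cell cannot be told apart. The 8 fibroblast markers summed to 103 to 130 CPM in WT DMSO and 115 to 154 CPM in WT niraparib, with 0 called and PDGFRA at 3 counts or fewer everywhere. Nearly all of this was COL1A1, with means of 112 CPM in WT DMSO and 127 CPM in WT niraparib. No other fibroblast marker passed 0.852 CPM in any library. The 5 leukocyte markers summed to 0.765 CPM or less and the 4 endothelial ones to 0.291 CPM or less in every library. Of the leukocyte markers CD3E was at 3 counts or fewer everywhere. ITGAM was called higher with niraparib in WT (3.30, adjusted p = 0.012, edgeR), close to the floor. It had 0 to 1 counts per WT DMSO library and 2 to 12 per WT niraparib library. Of the endothelial markers, PECAM1 and CDH5 were at 3 counts or fewer everywhere. In 3 libraries (WT DMSO replicate 1, WT niraparib replicate 2 and PARP1 KO niraparib replicate 3) the median gene lay 1.301 to 1.51 times as far from the mean of the other libraries of its group as in the next library of the same group. These 3 are said below to stand apart, and results of the 9 genes are also given without them where that changes a call.

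MMP10 (ENSG00000166670) lies on the minus strand of chromosome 11 at positions 102770502 to 102780628 of GRCh38. MMP14 (ENSG00000157227) lies on chromosome 14 from 22836560 to 22849027 and PLAU (ENSG00000122861) on chromosome 10 from 73909177 to 73917496, both on the plus strand. The bases before the transcription starts of these 3 genes, those that were called higher with niraparib in WT, are shown from the RefSeq promoter table (GRCh38.p14), 5′ to 3′ on the strand of the gene and stopping short of any exon annotated for the gene. Capitals mark an AP-1 motif (TGANTCA, its own reverse complement) or a PEA3 motif bound by ETS factors (AGGAAG, both strands searched), and the motifs do not overlap. PLAU has 2 starts in that table and the window of the second is printed, since the first holds neither motif.
MMP10, chr11:102780629-102780878: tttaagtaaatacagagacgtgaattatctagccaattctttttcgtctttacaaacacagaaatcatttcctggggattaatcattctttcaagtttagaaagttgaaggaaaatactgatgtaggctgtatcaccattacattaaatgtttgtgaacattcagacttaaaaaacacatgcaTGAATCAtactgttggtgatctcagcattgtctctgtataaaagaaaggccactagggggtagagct
MMP14, chr14:22836335-22836559: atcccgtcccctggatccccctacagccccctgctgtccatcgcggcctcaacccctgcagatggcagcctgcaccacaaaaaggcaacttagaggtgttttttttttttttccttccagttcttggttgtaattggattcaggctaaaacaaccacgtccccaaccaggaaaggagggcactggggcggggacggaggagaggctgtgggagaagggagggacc
PLAU, chr10:73910882-73911103: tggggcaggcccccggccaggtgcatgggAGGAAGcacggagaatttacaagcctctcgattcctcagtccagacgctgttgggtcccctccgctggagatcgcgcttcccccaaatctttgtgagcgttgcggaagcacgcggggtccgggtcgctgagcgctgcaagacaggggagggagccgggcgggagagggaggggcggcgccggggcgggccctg

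The AP-1 motif of MMP10 starts 67 bases before its transcription start. AP-1 motifs stood in the 250 bases upstream of 6.57% of 35116 promoters in the table, and PEA3 motifs in 28.7%. Of the 9 genes, 6 had an entry. PLAUR, which was called in no comparison, held both motifs, TIMP1 held a PEA3 motif, and MMP14 and MMP15 held neither. A match describes these letters only, and no match says only that the letters are not in this window.

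Of the comparisons of a drug with DMSO, niraparib in WT cells gave the most calls among the 9 genes. MMP10 went from at most 1 read per library to between 102 and 288 reads, PLAU rose about 5.5-fold, and MMP14 rose 1.78-fold, while the collagenases MMP1 and MMP13 stayed at a few reads and PLAUR, TIMP1 and MMP15 passed no test. TIMP2, by far the most abundant of the 9 genes, was lower in all 3 niraparib libraries at 0.671 of its DMSO level. To be called, a gene needed both a change above 1.5-fold and an adjusted p under 0.05 in edgeR's quasi-likelihood test, with Benjamini-Hochberg adjustment over all genes tested. By that criterion 3 of the 8 genes tested were called higher and 0 lower, against 13.8% of the 22446 genes tested called in this comparison (8.1% higher and 5.72% lower). MMP1 had too few counts in the WT libraries to be tested. The median log2 fold change of the 6 genes left after MMP1, MMP10 and MMP13, which had groups at or under the floor of 3 counts, was 0.008, beside -0.025 over all genes tested.

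**Figure D1:**
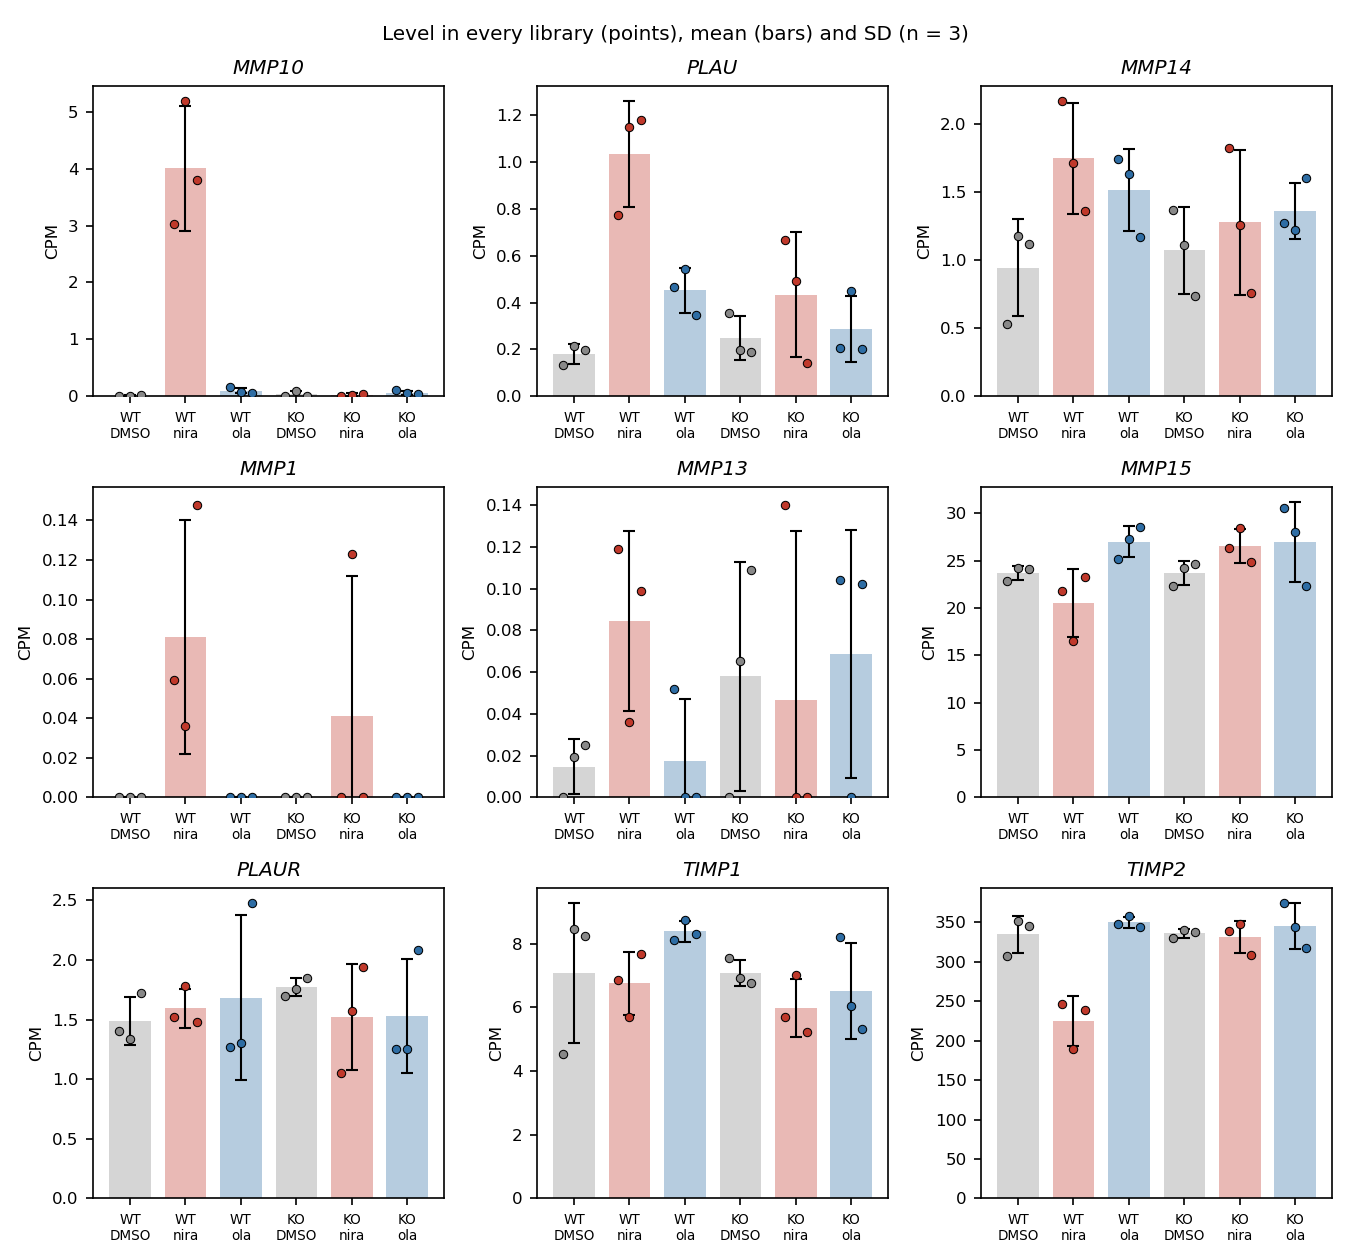
Level of each of the 9 genes in CPM (vertical axis from 0) in the 18 libraries, grouped by genotype (WT, or KO for PARP1 KO) and treatment (nira, niraparib; ola, olaparib). Points are libraries, bars are means and whiskers are ± SD (n = 3), cut at 0. MMP10 reached 3.03 to 5.19 CPM in the 3 WT niraparib libraries and at most 0.155 CPM in the other 15, and TIMP2 was lowest in the WT niraparib libraries (189 to 247 CPM).

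MMP10 was almost absent from untreated cells. In WT DMSO it had 0, 0 and 1 counts in replicates 1 to 3, in WT niraparib 102, 288 and 154 counts, and in WT olaparib 6, 3 and 2 counts. On the CPM scale the niraparib libraries held 3.03, 5.19 and 3.80. Every niraparib library was thus far above every other library of the series, and the olaparib libraries lay just above the DMSO libraries without overlap. In total, 544 counts with niraparib stood against 1 with DMSO, a ratio of 511 after scaling for library size, with a 95% counting interval from 91.3 to 20200. Against olaparib, with 11 counts, the ratio was 40.8 (22.6 to 82.3). These intervals cover counting error only. The fitted log2 fold change for niraparib was 8.47 (SE 0.50, adjusted p = 1.4e-11, edgeR), and its size depends on how the single DMSO count is treated: it was 10.32 without WT DMSO replicate 3, the library with that count, and 8.21 without WT niraparib replicate 2, the highest.

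The transcripts of MMP10 share a run of 96 identical bases with those of MMP3 (stromelysin-1), its closest relative in the same gene cluster, and runs of 18 and 16 bases with those of MMP1 and MMP13. MMP3 had 2 counts in all 18 libraries and 0 in the niraparib libraries of either genotype. No exon base of MMP10 lies in an exon of another annotated gene on its strand.

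PLAU (urokinase) had 4, 11 and 8 counts in WT DMSO and 26, 64 and 48 counts in WT niraparib. This corresponds to 0.133, 0.213 and 0.199 CPM against 0.774, 1.15 and 1.18 CPM. All niraparib libraries were above all DMSO libraries, and the log2 fold change was 2.46 (SE 0.37, 95% interval 1.70 to 3.22, adjusted p = 1.1e-05, edgeR). PLAUR, the urokinase receptor, had 1.49 ± 0.205 CPM with DMSO and 1.59 ± 0.165 CPM with niraparib (SD, n = 3 each), with overlapping libraries and a log2 fold change of 0.11 (95% interval -0.41 to 0.63). PLAU RNA rose without a detected change of PLAUR RNA. At these counts a change of PLAUR within that interval could not be told from none.

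MMP14, the membrane type 1 metalloprotease that activates proMMP2 on the cell surface, had 16, 61 and 45 counts in WT DMSO and 73, 95 and 55 counts in WT niraparib. Its levels were 0.533, 1.18 and 1.12 CPM with DMSO and 2.17, 1.71 and 1.36 CPM with niraparib, so the groups did not overlap. The log2 fold change was 0.84 (SE 0.27, adjusted p = 0.019, edgeR). This call rested on single libraries: the log2 fold change was 0.59 (adjusted p = 0.077) without WT DMSO replicate 1, 0.66 (adjusted p = 0.11) without WT niraparib replicate 1 and 0.60 (adjusted p = 0.069) without the 3 libraries that stand apart. Its substrate gene MMP2 (gelatinase A) had 1 count in the 3 WT niraparib libraries together and 0 in those with DMSO.

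MMP15, the second membrane-type enzyme, was present at 22.8, 24.2 and 24.1 CPM with DMSO and 21.8, 16.5 and 23.3 CPM with niraparib. The groups overlapped, and the log2 fold change of -0.22 did not pass (SE 0.10, adjusted p = 0.11, edgeR). MMP1 had 0 counts in every WT DMSO library and 2, 2 and 6 counts with niraparib, and MMP13 had 0, 1 and 1 counts with DMSO and 4, 2 and 4 with niraparib. Both collagenases stayed so close to the floor of 3 counts that no fold change is given for them.

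On the inhibitor side, TIMP2 had 308, 352 and 345 CPM in WT DMSO and 247, 189 and 239 CPM in WT niraparib, without overlap. The log2 fold change was -0.58 (SE 0.093, 95% interval -0.78 to -0.37, adjusted p = 6e-04, edgeR), which lies at the edge of the 1.5-fold criterion, so TIMP2 was not called. It passed that criterion without WT DMSO replicate 1 (-0.63), WT niraparib replicate 1 (-0.65) or WT niraparib replicate 3 (-0.62). Of the 5633 exon bases of TIMP2, 198 (3.52%) also lie in an exon of another annotated gene on the same strand. TIMP1 had 7.08 ± 2.21 CPM with DMSO and 6.75 ± 0.988 CPM with niraparib (SD, n = 3 each), with overlapping libraries and a log2 fold change of -0.094 (95% interval -0.52 to 0.33).

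**Figure D2:**
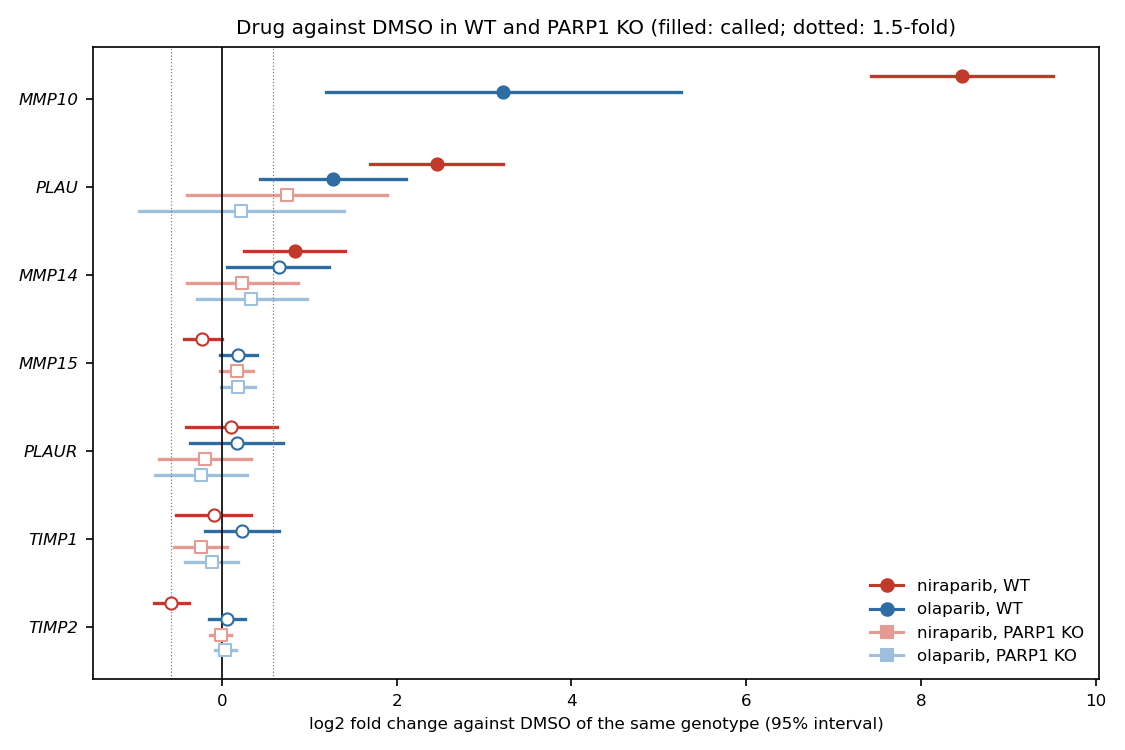
Log2 fold change (horizontal axis) of each drug against DMSO of the same genotype, with 95% intervals, for the 7 genes that rose above the low-count floor in WT. Circles are WT and squares PARP1 KO, filled symbols passed both the adjusted p and the 1.5-fold criterion (dotted lines), and MMP10 is left out in PARP1 KO, where every library had 4 counts or fewer. Filled symbols stand at MMP10 (8.47 and 3.22), PLAU (2.46 and 1.27) and MMP14 (0.84), all in WT.

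The niraparib change of MMP10 altered the order of the genes when levels are compared per length (CPM per kilobase of exon). In WT DMSO the order was TIMP2 (54.8 to 62.5 over the 3 libraries), MMP15 (5.40 to 5.71), TIMP1 (3.14 to 5.86), PLAUR (0.300 to 0.386), MMP14 (0.120 to 0.265) and PLAU (0.0452 to 0.0723), followed by MMP13, MMP10 and MMP1 at 0.0142 or less. MMP15 and TIMP1 overlapped, the last 3 overlapped one another, and the remaining neighbours did not overlap. In WT niraparib MMP10 stood next after TIMP1, at 1.73 to 2.95 CPM per kilobase, above MMP14 (0.304 to 0.487), PLAUR (0.332 to 0.400) and PLAU (0.262 to 0.402), which overlapped one another. TIMP2 was again the highest, at 33.6 to 43.8. Over the 24 annotated MMP genes, MMP10 made up 10.6% to 18.2% of the summed level per length with niraparib in WT and at most 0.0987% with DMSO. In the other 4 groups it made up at most 0.6%.

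The whole MMP family was sparse in these cells. Of the 24 MMP genes, 14 had no library with more than 10 counts, 7 had none with more than 3, and 7 had a mean of at least 1 CPM. MMP10 sits in a cluster of 9 MMP genes at 11q22, where MMP1 starts 17.5 kb, MMP3 63.0 kb and MMP13 175 kb from the MMP10 start. Outside MMP10, no gene of the cluster had more than 6 counts in any library. The genes that flank the cluster were well expressed: YAP1 had a mean of 277 CPM with DMSO and 279 CPM with niraparib in WT, and TMEM123 had 291 and 263 CPM. BIRC3 and BIRC2, inhibitors of apoptosis on one side of the cluster, were each 0.44 higher on the log2 scale with niraparib in WT (adjusted p = 6.1e-04 and 4.4e-08, edgeR), under 1.5-fold. Of the 9 genes tested among the cluster and its flanks, MMP10 was the single one called with niraparib in WT, beside 13.8% of all genes. In the niraparib interaction 2 of 11 were called, beside 8.88% of all genes: MMP10 and BIRC3 (-0.70, SE 0.15, adjusted p = 3.6e-04, edgeR).

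**Figure D3:**
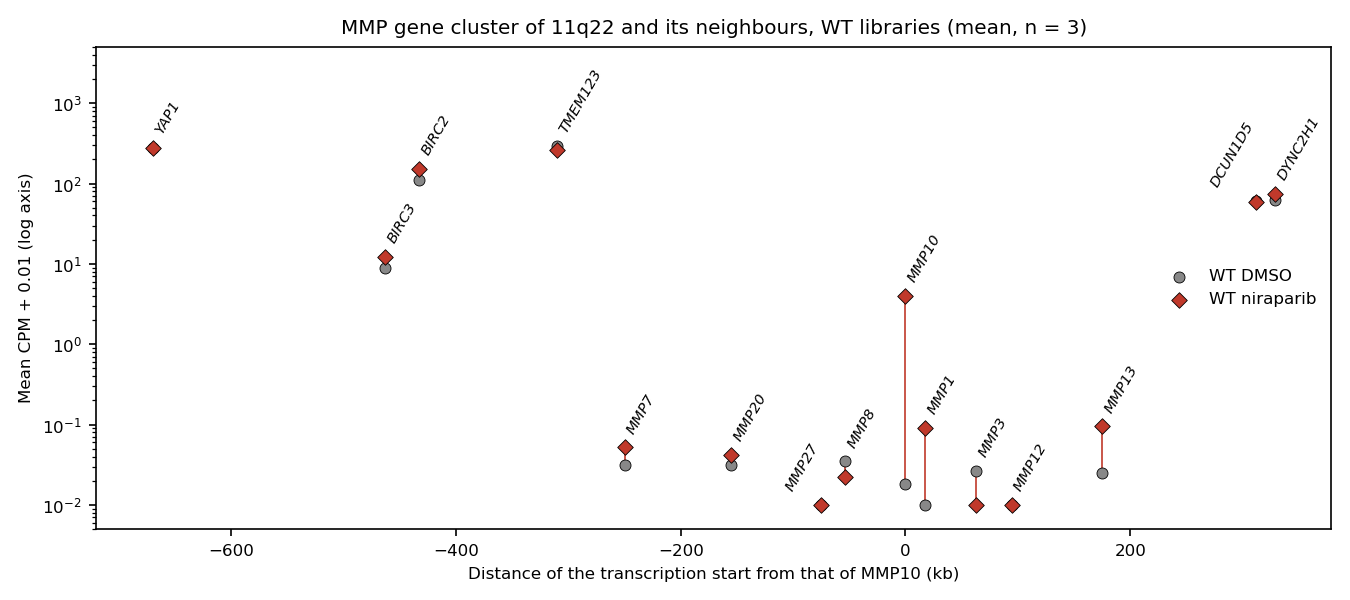
Mean level (CPM + 0.01, log axis, n = 3) with DMSO (grey circles) and niraparib (red diamonds) in WT for the MMP genes of 11q22 and 6 flanking genes, against the distance of their transcription start from that of MMP10 in kb. MMP10 went from 0.00831 to 4.01 CPM, while the other MMP genes of the cluster stayed below 0.1 CPM and of the flanking genes BIRC3 went from 8.97 to 12.2 CPM and BIRC2 from 112 to 152 CPM.

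Olaparib was given to WT cells at the same dose and for the same time. It called 2 of the 8 genes tested, both higher, against 4.04% of all genes (2.06% higher and 1.98% lower). MMP10 had 6, 3 and 2 counts against 0, 0 and 1 with DMSO, a ratio of 12.5 with a counting interval from 1.82 to 538 and a fitted log2 fold change of 3.22 (SE 0.98, adjusted p = 0.023, edgeR). PLAU had 0.466, 0.542 and 0.349 CPM with olaparib, above all DMSO libraries, and a log2 fold change of 1.27 (SE 0.40, adjusted p = 0.029, edgeR). Neither call was firm. For MMP10 the log2 fold change was 2.92 (adjusted p = 0.056) without WT DMSO replicate 1, 2.60 (adjusted p = 0.11) without WT DMSO replicate 2 and 2.74 (adjusted p = 0.13) without WT olaparib replicate 1. For PLAU the adjusted p was 0.076, 0.051 and 0.063 without WT DMSO replicates 1, 2 and 3, and 0.077 and 0.10 without WT olaparib replicates 1 and 2, with log2 fold changes of 1.13 to 1.41. Without the 3 libraries that stand apart PLAU was at 1.13 (adjusted p = 0.062). MMP14 had 1.74, 1.63 and 1.17 CPM with olaparib, where the lowest library lay within the DMSO range, and a log2 fold change of 0.65 (SE 0.28, 95% interval 0.061 to 1.23, adjusted p = 0.12). MMP15 (0.19), TIMP1 (0.23) and TIMP2 (0.066) were not called. TIMP2 in the olaparib libraries was at 348, 358 and 344 CPM.

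The drugs were then compared directly in WT, where 3 of the 8 genes tested were called against 8.95% of all genes. MMP10 was higher with niraparib than with olaparib by 5.25 on the log2 scale (SE 0.36, 95% interval 4.51 to 6.0, adjusted p = 3.1e-10, edgeR). PLAU was higher by 1.19 (SE 0.33, 95% interval 0.51 to 1.87, adjusted p = 0.0071), and no niraparib library overlapped the olaparib libraries for either gene. TIMP2 was lower with niraparib by a log2 value of -0.64 (SE 0.093, 95% interval -0.85 to -0.43, adjusted p = 3.7e-04), and this was under 1.5-fold, at -0.53, without WT niraparib replicate 2 and without the 3 libraries that stand apart. MMP15 was lower by a log2 value of -0.41 (adjusted p = 0.0051), under 1.5-fold. MMP14 did not separate the drugs: the difference was 0.19 with a 95% interval from -0.36 to 0.74, whose upper end lies past 1.5-fold. For TIMP1 the difference was -0.32 (95% interval -0.75 to 0.10).

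In PARP1 KO cells 0 of the 8 genes tested were called under either drug, and MMP1, with 4 counts in these libraries, was not tested. MMP10 had 0, 3 and 0 counts with DMSO, 0, 1 and 2 with niraparib and 4, 2 and 1 with olaparib, so the knockout libraries with niraparib held 3 counts in all against 544 in WT, a ratio of 144 (95% counting interval 49.2 to 703). With olaparib the genotypes held 11 and 7 counts, a ratio of 1.59 (0.561 to 4.82). PLAU had 0.356, 0.196 and 0.191 CPM with DMSO and 0.666, 0.492 and 0.142 CPM with niraparib in PARP1 KO. Its log2 fold change of 0.75 had a 95% interval from -0.40 to 1.89 (adjusted p = 0.74, edgeR), and 1 of the 3 niraparib libraries lay below all of those with DMSO. MMP14 (0.23), MMP15 (0.17) and TIMP2 (-0.014) were not called either.

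Counts over all genes were small in the knockout too. With niraparib 0 of 8 genes tested were called beside 0.0136% of all 22037 genes, with olaparib 0 of 8 beside 0.803%, and between the drugs 0 of 8 beside 1.07% (edgeR); 0 of the 8 had an unadjusted p below 0.05 in any of the 3 comparisons, and DESeq2 called 0 as well. Over the 6 genes above the floor, log2 fold changes lay between -0.24 and 0.75 with niraparib, -0.24 and 0.34 with olaparib and -0.13 and 0.52 between the drugs. A count of 0 among 8 genes cannot be read apart from so low a background. Without drug, 0 of the 9 genes were called between PARP1 KO and WT cells, beside 0.146% of 24675 genes called. MMP1 had 0 counts in the DMSO libraries of both genotypes and so could not be called. The values of the 6 genes lay between -0.016 and 0.41 (lowest adjusted p = 0.72, edgeR; 0 genes at an unadjusted p below 0.05, and 0 called by DESeq2).

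Whether the niraparib response differed between the genotypes was tested as an interaction over all 18 libraries, given as the knockout response minus the WT response. Of 9 genes, 1 was called (MMP10), beside 8.88% of all genes. MMP1, at 0 counts in the DMSO libraries of both genotypes, gave no usable estimate. For MMP10 the interaction was -8.45 (SE 1.82, adjusted p = 5.1e-04, edgeR). It was lost without PARP1 KO DMSO replicate 2, the library with all 3 counts of its group (-5.17, adjusted p = 0.98), when both remaining knockout DMSO libraries were at 0. TIMP2 had an interaction of 0.56 (SE 0.12, 95% interval 0.31 to 0.81, adjusted p = 0.002), just under 1.5-fold (0.61 and called without WT DMSO replicate 1, WT niraparib replicate 1 or PARP1 KO niraparib replicate 3), and its 3 knockout niraparib libraries (339, 348 and 309 CPM) were all above the 3 WT ones. PLAU had -1.73 (SE 0.67, adjusted p = 0.057), which passed without WT niraparib replicate 1 (-1.92, adjusted p = 0.042) or PARP1 KO niraparib replicate 1 (-2.18, adjusted p = 0.021) and fell to -1.03 (adjusted p = 0.34) without the 3 libraries that stand apart. MMP14 (-0.61, adjusted p = 0.35) and MMP15 (0.38, adjusted p = 0.097) did not pass. For olaparib, 0 of 9 genes were called beside 0.657% of all genes. MMP1, at 0 counts in every DMSO and olaparib library, could not be called there. Log2 values of the 6 genes lay between -1.04 and 0.0047 (lowest adjusted p = 0.48, edgeR). Of the genes, 0 had an unadjusted p below 0.05, and 0 were called by DESeq2.

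Other genes of the same system were read from fixed lists. Of 18 further MMP genes, 9 had enough counts to be tested in WT; niraparib called 2 higher and 1 lower, beside 8.1% and 5.72% of all genes. MMP9 (gelatinase B) went from 0.240 ± 0.0365 to 1.01 ± 0.301 CPM (SD, n = 3 each; log2 fold change 2.05, SE 0.37, adjusted p = 9.3e-05, edgeR), and MMP24, a membrane-type enzyme, had 2 to 6 counts per library with DMSO and 14 to 17 with niraparib (2.02). MMP25, an enzyme with a glycolipid anchor, fell by 0.60 on the log2 scale (adjusted p = 0.026), with overlapping libraries (1.70 to 2.89 and 1.33 to 1.80 CPM), and was not called without WT DMSO replicate 2 (-0.40, adjusted p = 0.20) or 3 (adjusted p = 0.058) or WT niraparib replicate 1 (adjusted p = 0.064) or 2 (adjusted p = 0.094). MMP9 and MMP24 were singled out after their values were seen, as were SERPINE2, FOSL1 and COL5A1 below, since all 5 have a mean under 1 CPM; so were list genes named below for another comparison or without a call. With olaparib 0 of the 9 were called, beside 4.04% of all genes. In the niraparib interaction 2 of 10 were called, beside 8.88% of all genes: MMP9 (-1.72, adjusted p = 0.037), called in 12 of 19 alternatives, and MMP24 (-3.46, adjusted p = 0.014), which was not called without PARP1 KO DMSO replicate 2 (-2.48, adjusted p = 0.15) or without the 3 libraries that stand apart (adjusted p = 0.069). TIMP3, an inhibitor that binds the matrix, was the single further inhibitor tested of 4 and rose with niraparib in WT, from 1.22 ± 0.131 to 2.75 ± 0.516 CPM (SD, n = 3 each; 1.18, SE 0.21, adjusted p = 8.7e-05). In PARP1 KO it was at 1.21 ± 0.0780 and 0.961 ± 0.169 CPM, and its interaction of -1.49 passed (adjusted p = 4.9e-04, edgeR). TIMP2 and TIMP3 therefore lay on opposite sides of 0 in the same libraries.

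Among further genes of the plasminogen system, SERPINE2 (protease nexin-1), a serpin that inhibits urokinase, was called with niraparib in WT. Of all genes, 8.1% were called higher with niraparib and 2.06% with olaparib. Since 1 gene of this list is not reported here, no count of calls with either drug is given. It went from 0.487 ± 0.275 to 2.77 ± 0.287 CPM (SD, n = 3 each; 2.42, SE 0.31, adjusted p = 1.7e-06, edgeR), with 1.03 ± 0.365 CPM under olaparib (1.01, adjusted p = 0.038, and 0.055 to 0.26 without WT DMSO replicate 1 or 3 or WT olaparib replicate 1 or 3). Without the 3 libraries that stand apart, SERPINE2 was still called with niraparib and not with olaparib (0.76, adjusted p = 0.055). PLGRKT, S100A10 and ANXA2, which bind plasminogen on the cell surface, had log2 fold changes of -0.53, -0.37 and -0.31 with niraparib in WT (adjusted p = 9.4e-06, 7.7e-06 and 0.0047, a threshold that 38.0% of all genes passed). None of the 3 was called, beside 13.8% of all genes, although PLGRKT was at -0.59 and called without WT DMSO replicate 1. In the niraparib interaction SERPINE2 was the 1 of 8 tested genes called, beside 8.88% of all genes. The interaction of SERPINE2 was -1.88 (adjusted p = 0.021, edgeR; 0.054 to 0.16 without WT DMSO replicate 3, PARP1 KO DMSO replicate 3 or PARP1 KO niraparib replicate 2, and 0.062 without the 3 libraries that stand apart), and in PARP1 KO it was called with neither drug.

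All 7 AP-1 subunits were tested, and all 7 were higher with niraparib in WT at an adjusted p below 0.05, which 38.0% of all genes reached in either direction. Of the 7, 4 were called, beside 8.1% of all genes called higher, a count that was the same without the 3 libraries that stand apart. FOSL1 (FRA-1) went from 0.264 ± 0.142 to 1.12 ± 0.413 CPM (2.18, adjusted p = 1.9e-04), FOSB from 8.10 ± 3.73 to 20.6 ± 8.85 CPM (1.39, adjusted p = 0.038), JUN from 177 ± 21.2 to 313 ± 6.13 CPM (0.82, adjusted p = 3.5e-08) and JUND from 139 ± 5.01 to 220 ± 11.7 CPM (0.67, adjusted p = 5.9e-10; SD, n = 3 each, edgeR). FOSB was not called without WT DMSO replicate 2 or 3 or WT niraparib replicate 1 or 2 (0.96 to 1.53, adjusted p = 0.05 to 0.12). The median over the 7 was 0.67, beside -0.025 over all genes. With olaparib the median was 0.57 and 1 subunit was called, beside 4.04% of all genes, JUNB (0.83, adjusted p = 5.8e-09); without the 3 libraries it was 3 (FOSB, JUN and JUNB). In PARP1 KO, niraparib called FOS (0.88, adjusted p = 8.2e-06), with a median of 0.27 over the 7, and olaparib called FOS (0.76) and FOSB (1.03), beside 0.0136% of all genes called with niraparib and 0.803% with olaparib. In the niraparib interaction 0 of the 7 were called, although 4 had an adjusted p under 0.05, beside 22.9% of all genes, with JUND at -0.58 (adjusted p = 3.8e-07), just under 1.5-fold, and -0.63 without the 3 libraries that stand apart. Of 5 ETS factors, 1 was called with niraparib in WT, beside 13.8% of all genes, ETS2 (3.15 ± 0.274 to 5.43 ± 0.366 CPM, SD, n = 3 each; 0.79, adjusted p = 6.9e-05), and its interaction was -0.83 (adjusted p = 0.0097, edgeR; -0.66, adjusted p = 0.059, without PARP1 KO DMSO replicate 2).

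The remaining lists were counted against the same shares of all genes, 13.8% called and 38.0% at an adjusted p below 0.05 with niraparib in WT. Of 9 tested activators and surface partners of metalloproteases (such as furin, basigin and CD44) 0 were called with niraparib in WT by the double criterion, although 8 had an adjusted p below 0.05, CD151 lowest at -0.49 on the log2 scale. In the niraparib interaction 1 of 10 was called, beside 8.88% of all genes, CLDN1 (-0.59, adjusted p = 0.041), which kept its call in 7 of 19 alternatives. Among 8 tested ADAM sheddases 0 were called with niraparib, 3 had an adjusted p below 0.05, and ADAM8 was called lower with olaparib (-0.87, adjusted p = 0.018, edgeR; 0.06 to 0.10 without WT DMSO replicate 1 or WT olaparib replicate 1 or 3), beside 4.04% of all genes; without the 3 libraries that stand apart ADAM19 was called higher as well. In the niraparib interaction ADAM8 was the 1 of 9 called, beside 8.88% of all genes (1.31, adjusted p = 0.0051, edgeR; 1.04 to 1.58 and called in all 19 alternatives). Of 7 tested ADAMTS proteases 2 fell with niraparib, the aggrecanases ADAMTS4 (1.91 ± 0.400 to 0.992 ± 0.202 CPM; -0.92, adjusted p = 0.007) and ADAMTS15 (43.7 ± 4.45 to 27.9 ± 2.12 CPM; -0.65, adjusted p = 1.6e-07; SD, n = 3 each, edgeR), the latter at -0.58 and under 1.5-fold without WT DMSO replicate 3. The interaction of ADAMTS15 with niraparib was 0.66 (adjusted p = 1.5e-05, edgeR; 0.59 to 0.73 and called in all 19 alternatives). Of 11 collagen genes 1 was called, COL5A1 (1.13, adjusted p = 0.0096), and without the 3 libraries that stand apart it was 0.

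**Figure D4:**
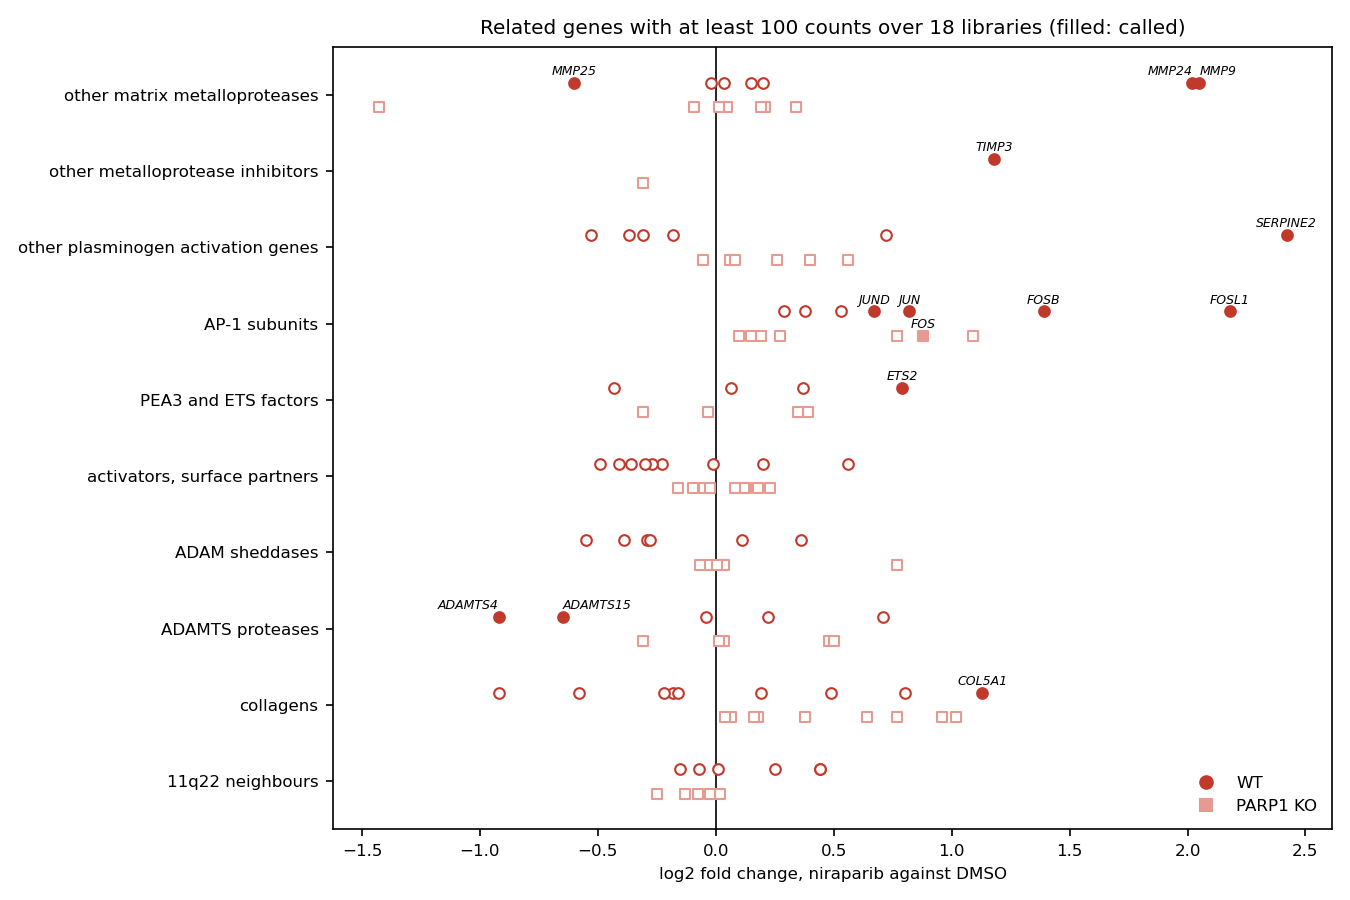
Log2 fold change of niraparib against DMSO (horizontal axis) for the genes of each list with at least 100 counts over the 18 libraries, in WT (red circles) and PARP1 KO (light squares). Each symbol is a gene, and filled, named symbols passed both the adjusted p and the 1.5-fold criterion. Named WT genes run from ADAMTS4 (-0.92) to SERPINE2 (2.42), and in PARP1 KO the single named gene is FOS (0.88).

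The genes most like each member across the 18 libraries were found by Pearson's correlation of log2 CPM over the 13526 genes whose mean reached 1 CPM; libraries of a group share their treatment, so these are descriptions. MMP10 and PLAU lie below that mean and their neighbours were added after the values were seen. For MMP10 they were DDX21, TMA16 and DHX32 (each 0.98), which like it were high in the WT niraparib libraries, DDX21 with 502 to 541 CPM there and 245 to 286 CPM in the other 15. PLAU was closest to ARHGAP10 (0.92), MAPRE2 (0.92) and HBEGF (0.90). MMP14 was closest to CNTNAP2 (0.82), SERPINB1 (0.80) and SMARCAL1 (0.79), and MMP15 to CALU (0.92), SPINT1 (0.91) and AHCYL1 (0.90). TIMP2 was closest to QSOX1 (0.99), PDIA3 (0.98) and B3GALT4 (0.98), of which B3GALT4 had 20.3 ± 1.63 CPM with DMSO and 10.6 ± 1.69 CPM with niraparib in WT (SD, n = 3 each). TIMP1 was closest to LMAN2 (0.93). For PLAUR the highest correlation was 0.64 (ST6GALNAC4).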

How the data were processed

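RNA of 18 T47D libraries was sequenced by the authors, who deposited raw counts of reads per gene, without normalization. Per the labels and the methods of the study, STAR mapped the reads to GRCh38 (hg38), and featureCounts 2.0.0 assigned exon reads of the reverse strand to genes of Ensembl release 96, leaving out reads shared by several genes. The input of the counting step is called deduplicated, but the sources used here do not say whether duplicates were taken out or only flagged. Labels and paper differ on medium, RNA input and extraction kit. Positions and exon lengths are those of the deposited files; symbols come from a table of gene names, and the transcript comparison and the exons kept out of promoter windows from GENCODE version 44.

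A gene entered a test when its counts over the libraries fitted summed to more than 10. edgeR 4.0.16 in R 4.3.3 was used (TMM scaling, robust quasi-likelihood F test, Benjamini-Hochberg adjustment) on 9 libraries for each genotype, and on 18 for the genotype comparison and the interactions. Calls required an adjusted p under 0.05 with over 1.5-fold change. The SE was taken from the log2 fold change and its F value. CPM use TMM-scaled totals of the 18 libraries, and correlations log2(CPM + 0.25). Count ratios have exact (Clopper-Pearson) 95% intervals, and the floor is 3 counts per library. An exact permutation test of 3 against 3 libraries cannot go below p = 0.1, so the tests come from the fit to all genes.

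The 9 genes, the gene lists and the tests were chosen with earlier results of these data known. All 9 were named; of each list, up to 4 genes called with niraparib in WT at a mean of 1 CPM or more were named, and others are marked as chosen later. The 3 libraries said to stand apart had a median absolute log2 deviation from the other libraries of their group at least 1.25 times that of the next library in the same group; leaving them out was chosen after seeing the data. Alternatives were RLE size factors, filterByExpr or no filter, DESeq2 1.42.0, a block for the replicate number, other sets of libraries in a fit, other thresholds and each library left out. The fits were also run on simulated counts, with changes planted in genes above a mean of 1 CPM. PLAU, MMP1 and MMP13 lie below that mean, and no rise from a near-absent level, as in MMP10, was simulated. Protein sequences were not used here. One gene of the plasminogen list is not reported here.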

Additional observations from a re-analysis of the deposited data

Results flagged for a closer look

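For 2 genes the interaction of genotype and niraparib over 18 libraries had an adjusted p under 0.05 (edgeR, knockout response minus WT response), and 1 of them, MMP10, was called; TIMP2 was under 1.5-fold. MMP10 had -8.45 (adjusted p = 5.1e-04): niraparib libraries held 102, 288 and 154 counts in WT and 0, 1 and 2 in PARP1 KO. Without PARP1 KO DMSO replicate 2 the fit gave -5.17 (adjusted p = 0.98), with both remaining knockout DMSO libraries at 0. TIMP2 had 0.56 (adjusted p = 0.002): its mean was 335 CPM with DMSO and 225 CPM with niraparib in WT, and 336 and 332 CPM in PARP1 KO. Over 19 alternatives the TIMP2 value lay between 0.44 and 0.61, with adjusted p-values from 1.2e-12 to 0.0069, and passed 1.5-fold in 3 of them, each at 0.61 with 1 library left out.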

How the results depend on the processing

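With niraparib in WT, MMP10 (7.85 to 10.32 on the log2 scale) and PLAU (2.24 to 2.62) were called in all 14 alternatives; the count of called genes was 3 in the main analysis, 2 to 4 otherwise, with MMP1 added when no filter on low counts was used. The count with olaparib in WT, 2, became 1 with all 18 libraries in one fit, 0 with only the libraries compared, 1 without the 3 libraries that stand apart, 1 at an absolute log2 fold change above 1.5, and 0 to 2 when single libraries were left out. For niraparib against olaparib the count of 3 became 1 at an absolute log2 fold change above 1.5. The count of 1 in the niraparib interaction became 2 on the adjusted p alone and lay between 0 and 3 when single libraries were left out. Signs turned for 4 values, none of them called: with niraparib in WT TIMP1 (-0.32 to 0.060 over single libraries left out) and PLAUR (-0.016 without the 3 libraries), and in PARP1 KO MMP14 (-0.093 to 0.52 over single libraries left out) and TIMP2 (-0.049 to 0.033 over single libraries left out, and 0.033 without the 3 libraries). Among list genes, FOSB kept its call in 7 of 14 alternatives, MMP25 in 9 of 14, SERPINE2 with olaparib in 6 of 14, and MMP9 in the interaction in 12 of 19. No pairing by replicate number was seen: same-numbered libraries of 2 groups correlated between -0.559 and 0.577, and in 0 of 15 pairs of groups did all 3 exceed 0.1. Such a check, with 3 libraries per group, cannot exclude a shared culture or batch. With the replicate block, 3 genes were called with niraparib, 2 with olaparib and 1 in the niraparib interaction, as without it; FOSB with niraparib in WT (adjusted p = 0.072) and, with olaparib, SERPINE2 (0.076) were lost, as was CLDN1 in the niraparib interaction (0.052), which was lost in 12 of 19 alternatives. The causes were not tested. Depth limits MMP1, MMP13 and, outside WT niraparib, MMP10, whose libraries held 6 counts or fewer.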
